A study of Rattus norvegicus with 31 samples.

Results

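Livers of rats given the mixture of thiacloprid and imazalil (THI + IMZ) were compared with livers of vehicle controls. The comparison held 12 of the 31 RNA-Seq libraries of the study, 4 from THI + IMZ rats and 8 from control rats, chosen by their treatment label alone. All rats were female Wistar rats (Crl:WI), young adults at the start, dosed daily by oral gavage for 28 days in 0.5% aqueous carboxymethyl-cellulose at 7.5 ml/kg bw, and the controls received this vehicle only. The THI + IMZ rats received 54 mg/kg bw/day of THI together with 46 mg/kg bw/day of IMZ, the high dose of this mixture. Groups of 4 rats on THI alone (108 mg/kg bw/day) and 4 on IMZ alone (93 mg/kg bw/day) served for a second comparison, in which each compound stood at about double the dose it had in the mixture. The remaining groups received clothianidin (CTD), alone or with THI or IMZ, and entered the shared estimate of the spread and the count minimum that decided which genes were tested. Each library came from 1 rat, and rats had been allocated to the groups at random. Of the 26312 genes in the count table, 19904 (75.6%) had at least 2 counts over the 31 libraries and were tested, and 17144 of those carried a gene symbol.

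THI is a neonicotinoid insecticide that acts on nicotinic acetylcholine receptors of insects, and IMZ is an azole fungicide that blocks sterol demethylation in fungi. The liver senses many foreign compounds through the nuclear receptors CAR (Nr1i3) and PXR (Nr1i2), which switch on cytochrome P450 enzymes that oxidize a compound, transferases that couple it to glucuronic acid, sulfate or glutathione, and transporters that move the product into blood or bile. Activators of CAR are also known to bring rodent hepatocytes into the cell cycle.

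Library totals ran from 40.0 to 45.7 M counts in the THI + IMZ group and from 32.7 to 101.2 M in the controls. Between 12716 and 13165 genes had 10 or more counts in a THI + IMZ library, and between 12532 and 14231 in a control library. Hepatocyte markers (albumin, transthyretin and 4 others) summed to 129000 to 206000 CPM (counts scaled to the library total with TMM factors) in THI + IMZ rats and 141000 to 198000 in controls. THI + IMZ rats 4 and 1 stood farthest from the rest of their group, with a root mean square distance of 0.428 and 0.412 log2 CPM over 11193 genes, against 0.332 for rat 2 and 0.298 for rat 3, and control rat 2 stood farthest among the controls (0.393). Values without rat 4 are therefore given beside each group of genes it moved.

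The mixture changed genes in both directions, with more of them higher. Of the 19904 genes tested, 235 (1.18%) had an adjusted p under 0.05 in edgeR's quasi-likelihood test with Benjamini-Hochberg adjustment over all genes, and these are the genes called here. The 169 genes that rose made up 0.849% of the genes tested and the 66 that fell 0.332%. The median log2 fold change was 1.05 for the genes that rose and -0.68 for those that fell, against -0.02 for all genes. Among the called genes, 86 rose and 22 fell by more than 1 on the log2 scale, and in 111 of them (68 higher, 43 lower) all 4 treated rats lay beyond all 8 controls. Such a lack of overlap was met in 0.794% of all genes on the higher side and 0.663% on the lower side. Without THI + IMZ rat 4 there were 100 genes higher (0.504%) and 43 lower (0.217%), and 115 of the 235 were still called. Rat 4 had the highest value of the group in 83 of the 169 genes that rose and the lowest in 46, so its weight differed between gene groups.

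**Figure D1:**
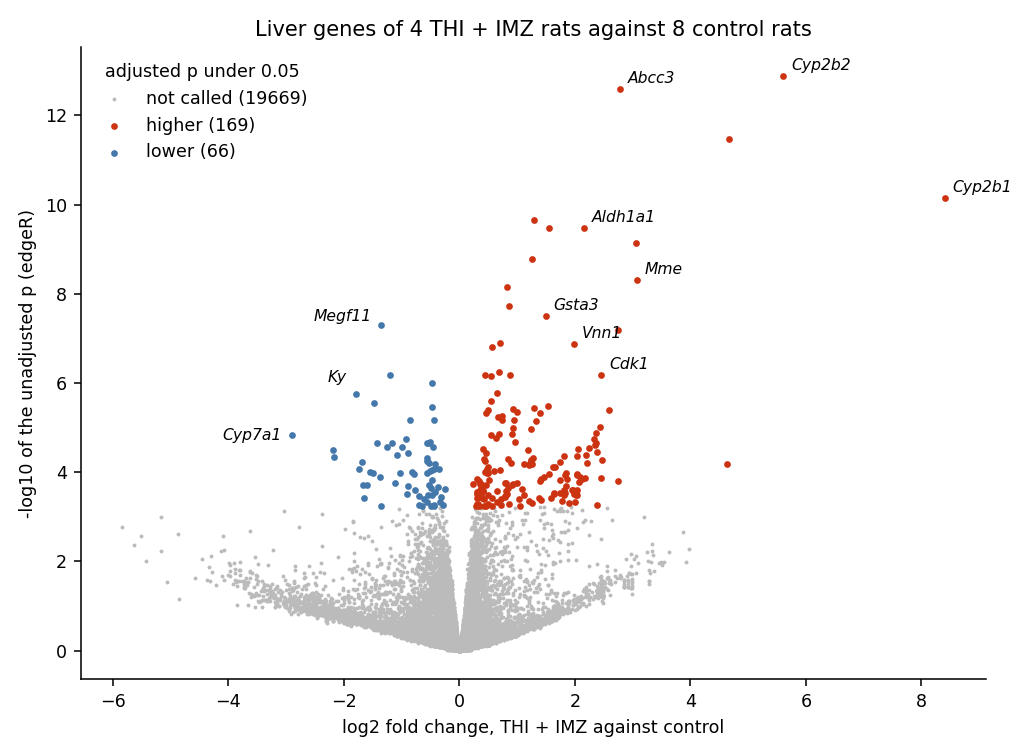
Log2 fold change of THI + IMZ against control (x axis) and -log10 of the unadjusted p (y axis, edgeR's quasi-likelihood test) for each of the 19904 genes tested, with the 169 genes that rose and the 66 that fell in colour. Cyp2b1, Cyp2b2 and Abcc3 lie far out on the higher side, and Cyp7a1 lies on the lower side at -2.90.

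Enzymes and transporters under CAR and PXR control were higher in the treated livers, and the Cyp2b genes led the whole comparison. Of 34 members tested, 12 rose and 0 fell, against 0.849% and 0.332% of all genes, and the median log2 fold change was 0.74. In 11 members the treated rats lay above all controls (0.794% of all genes). With any 1 of the 4 treated or 8 control rats left out, 10 to 12 of them were called, and 12 without rat 4. At an unadjusted p under 0.05, 20 members were higher and 1 lower, against 5.85% and 5.21% of all genes. Averaged over the 32 members with an average log2 CPM above -2, the list lay 1.25, 1.11, 1.24 and 0.87 log2 CPM above the control mean in THI + IMZ rats 1 to 4, while single controls lay between -0.20 and 0.27.

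Cyp2b1 and Cyp2b2 encode the phenobarbital-inducible P450 enzymes of rat liver and are the customary readout of CAR. Cyp2b1 stood at 373, 116, 161 and 41.1 CPM in THI + IMZ rats 1 to 4, whereas the controls ranged from 0.0302 to 0.998 with a median of 0.379. The groups were far apart, and rat 4 was the lowest of the treated rats. The log2 fold change was 8.41 ± 0.87 (SE, adjusted p = 3.48e-07). Cyp2b2 stood at 406, 316, 341 and 124 CPM against 1.51 to 12.1 in the controls (median 4.7), a log2 fold change of 5.61 ± 0.45 (adjusted p = 2.5e-09), and its order among the treated rats was again highest in rat 1 and lowest in rat 4. As the 2 genes are close paralogs, reads could have been split between them in the counting, and the size of each change is uncertain.

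The 250 bases before the start of both genes are shown because the 2 members with the strongest rise share nearly the same sequence there. The sequences are from RefSeq on the build GRCr8, at chr1:90645869-90646118 on the plus strand for Cyp2b1 and chr1:90722031-90722280 on the plus strand for Cyp2b2, whereas the reads were mapped to Rnor_5.0. Shifted by 17 bases against each other, they were identical at 225 of 233 bases (96.6%), and capitals mark the 8 that differ.
Cyp2b1: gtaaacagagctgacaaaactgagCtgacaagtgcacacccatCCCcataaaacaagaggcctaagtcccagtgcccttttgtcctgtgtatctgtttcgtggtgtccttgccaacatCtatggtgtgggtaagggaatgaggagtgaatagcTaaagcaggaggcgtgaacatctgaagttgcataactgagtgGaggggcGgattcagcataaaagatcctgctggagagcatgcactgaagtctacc
Cyp2b2: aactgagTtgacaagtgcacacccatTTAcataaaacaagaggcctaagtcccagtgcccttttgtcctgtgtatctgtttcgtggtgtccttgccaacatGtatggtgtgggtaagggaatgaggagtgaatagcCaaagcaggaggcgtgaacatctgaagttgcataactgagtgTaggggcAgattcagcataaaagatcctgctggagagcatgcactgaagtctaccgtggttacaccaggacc
Direct repeats of AGTTCA, a form of nuclear receptor site, were searched on both strands with 3 or 4 bases between the 2 copies. Neither repeat was found in these windows, and among 33469 rat promoters of this length the first spacing occurred in 0.00598% and the second in 0.0120%. None of the 28 promoters found for members of the CAR and PXR list held either repeat. As the repeats are so rare among all promoters, their absence from 28 tells nothing about receptor sites. Sites of another form or outside the 250 bases were not searched.

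Abcc3, which exports glucuronides from the hepatocyte to the blood, stood at 103, 48.8, 76.4 and 78.2 CPM in the treated rats and between 6.97 and 25.2 (median 9.38) in the controls. Every treated rat was above every control, and the log2 fold change was 2.78 ± 0.23 (adjusted p = 2.5e-09). Aldh1a1, the retinaldehyde dehydrogenase, rose from a control median of 89.5 CPM (46.8 to 172) to 307, 314, 437 and 539 CPM, a log2 fold change of 2.16 ± 0.24 (adjusted p = 9.59e-07). In contrast to Cyp2b1, Aldh1a1 was highest in rat 4. Cyp3a23/3a1, a P450 under PXR control, reached only 1.69, 1.05, 0.752 and 1.14 CPM against 0.0609 to 0.247 in the controls (log2 fold change 3.06 ± 0.35, adjusted p = 1.82e-06), and a second identifier with the same name gave 2.74 ± 0.39 (adjusted p = 8.66e-05). Both identifiers are low and may share reads, so the gene's level is uncertain. Pir, an iron-binding nuclear protein, rose by 1.56 ± 0.17 on the log2 scale (adjusted p = 9.59e-07) with 9.91, 6.44, 6.38 and 5.77 CPM in the treated rats and at most 3.28 in a control. Por, the reductase that passes electrons to all microsomal P450 enzymes, rose by 0.82 ± 0.20 (adjusted p = 0.0338) with 370, 274, 206 and 103 CPM against 113 to 165 in the controls, so that rat 4 lay below the lowest control. The call of Por was lost without control 1, 3, 6, 7 or 8 or treated rat 1 or 2.

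Of 14 carboxylesterases and epoxide hydrolases, 6 rose and 0 fell (median 0.54), against 0.849% and 0.332% of all genes. Ces1d, a hepatic carboxylesterase that hydrolyses esters and triglycerides, stood at 957, 920, 844 and 711 CPM against 267 to 491 in the controls (median 340), with a log2 fold change of 1.26 ± 0.15 (adjusted p = 3.66e-06) and no overlap. Its relative Ces1c rose by 0.82 ± 0.10 (adjusted p = 1.26e-05), and the 4 treated rats were close together at 1340, 1360, 1350 and 1400 CPM. Ces2i rose by 1.00 ± 0.18 (adjusted p = 0.00253) and CES2H by 0.69 ± 0.10 (adjusted p = 0.000157). Ces2j had an adjusted p of 0.0251 that was over 0.05 without treated rat 1, 3 or 4. Ephx1, the microsomal epoxide hydrolase, stood at 1140, 587, 1520 and 1900 CPM against 212 to 761 (median 592), so that rat 2 lay within the control range, and the log2 fold change was 1.24 ± 0.24 (adjusted p = 0.00436). Members of these families share sequence, and the split of reads between them is uncertain.

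Of 21 glucuronosyl- and sulfotransferases and their helpers, 5 rose and 0 fell (median 0.18), against 0.849% and 0.332% of all genes. The same number was called without rat 4. Ugt1a2 stood at 977, 705, 911 and 898 CPM against 363 to 594 in the controls (log2 fold change 0.85 ± 0.11, adjusted p = 3.15e-05). Ugt2b17 rose by 1.32 ± 0.25 (adjusted p = 0.00323), Ugt2a3 by 0.96 ± 0.19 (adjusted p = 0.00713) and Ugt2b35 by 0.56 ± 0.08 (adjusted p = 0.000171). Ugdh, which makes the UDP-glucuronic acid that these enzymes use, rose by 0.47 ± 0.10 (adjusted p = 0.0172), and its treated rats (199 to 230 CPM) lay above all controls (136 to 173 CPM), but its call was lost without treated rat 1.

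Among 24 glutathione S-transferases, 5 rose and 0 fell (0.849% and 0.332% of all genes), with a median of 0.12. Gstm1 stood at 698, 521, 722 and 892 CPM against 238 to 362 in the controls (log2 fold change 1.29 ± 0.14, adjusted p = 8.91e-07), and Gsta3 at 187, 220, 305 and 264 CPM against 35 to 126 (1.49 ± 0.20, adjusted p = 4.75e-05). Neither overlapped with the controls. Gsta2 (0.81 ± 0.20, adjusted p = 0.0308), Mgst2 (0.65 ± 0.16, adjusted p = 0.0307) and Gstm3 (2.38 ± 0.62, adjusted p = 0.0487) were close to the threshold. The call of Gsta2 was lost without control 5 or treated rat 1 or 3, and that of Gstm3, which has at least 1 library with 1 count, without any 1 control or treated rat 1, 3 or 4, while Mgst2 lost its call without treated rat 3 or 4. The list's count fell to 2 without treated rat 3, to 3 without treated rat 4 and to 3 without control 5.

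Targets of NRF2, the factor that answers oxidants and electrophiles, had 6 of 24 members higher and 0 lower (0.849% and 0.332% of all genes). The median was 0.36, and 22 of the 24 had a log2 fold change above 0. Gsr, the glutathione reductase, rose by 0.49 ± 0.09 (adjusted p = 0.00233) with 157, 116, 132 and 135 CPM against 86.5 to 105. Gclm, the regulatory subunit of the first enzyme of glutathione synthesis, rose by 0.45 ± 0.10 (adjusted p = 0.0172), and not without treated rat 1 or 4. Txnrd1 (0.50 ± 0.12, adjusted p = 0.0339) and SRXN1 (0.80 ± 0.20, adjusted p = 0.0359), which reduce thioredoxin and peroxiredoxin, overlapped with the controls. The call of Txnrd1 was lost without control 1, 3, 6, 7 or 8 or treated rat 1, 2 or 3, and that of SRXN1 without control 3, 5, 6, 7 or 8 or treated rat 1, 3 or 4. The list's count was 2 without treated rat 1, 3 without treated rat 3, treated rat 4 or control 8, and 8 without control 4. Of 8 targets of AHR, the dioxin receptor, 0 were called by edgeR or DESeq2. At an unadjusted p under 0.05, 3 were higher (5.85% of all genes). Cyp1a1 stood at 8.90, 11.6, 19.1 and 1.25 CPM against 0.268 to 7.81 in the controls, with a log2 fold change of 1.6 ± 0.65 (adjusted p = 0.32).

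**Figure D2:**
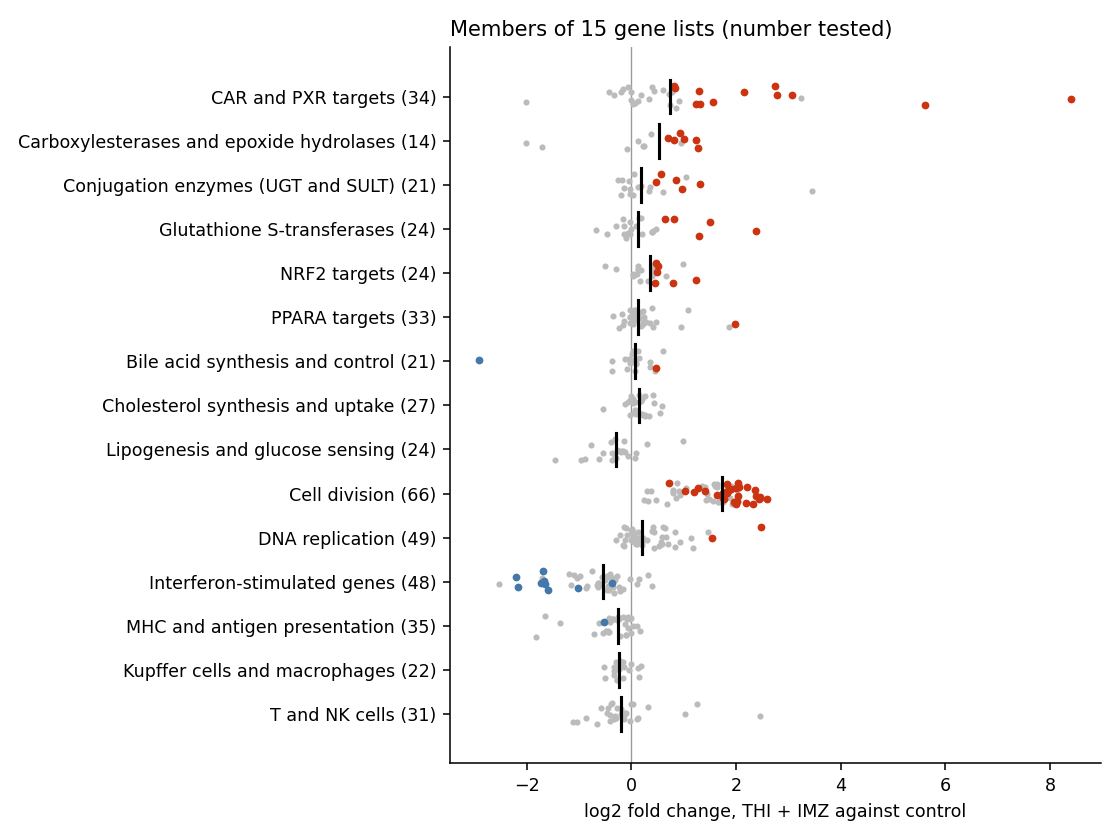
Log2 fold change of THI + IMZ against control (x axis) for the members of 15 gene lists (y axis, number tested in parentheses), with called genes in colour (red higher, blue lower), other members in grey and the list median as a black bar. Cell division has the highest median, 1.73, with 31 of 66 members higher, and interferon-stimulated genes have 9 of 48 members lower with a median of -0.54.

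Of 21 xenosensing receptors and their partners, 2 rose and 0 fell, against 0.849% and 0.332% of all genes. Nr1i3, which encodes CAR, stood at 26.2, 20.7, 23.1 and 16.5 CPM, just above the highest control at 16.1 (control median 7.74, lowest 2.85), with a log2 fold change of 1.24 ± 0.26 (adjusted p = 0.0122). Fitted on the compared groups alone, its adjusted p was 0.0753. Ppara, the receptor that controls fatty acid oxidation, rose by 0.73 ± 0.14 (adjusted p = 0.00312) with 27.9, 27, 30.8 and 23 CPM against 12.4 to 23.1. Of 33 targets of PPARA only Vnn1, a pantetheinase, was called, at 9.72, 9.88, 5.16 and 2.91 CPM against 0.912 to 2.74 (1.98 ± 0.29, adjusted p = 0.000157), and the median of that list was 0.13. At an unadjusted p under 0.05, 9 of the 33 were higher and 1 lower, against 5.85% and 5.21% of all genes.

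Cyp7a1, the rate-limiting enzyme of bile acid synthesis, was the called gene with a symbol that fell most among those without overlap. It stood at 42.2, 19.3, 31.5 and 32.9 CPM in the treated rats, whereas the controls ranged widely from 81.9 to 385 CPM with a median of 281. All treated rats lay below all controls, and the log2 fold change was -2.90 ± 0.56 (adjusted p = 0.00551). The call held with any 1 of the 12 rats left out. Among the other 20 tested members of the bile acid list only Mafg was called, higher by 0.47 ± 0.11 (adjusted p = 0.0256). Mafg is a small Maf protein that dimerizes with NRF2, and its call was lost without control 8 or treated rat 1, 3 or 4. Of 27 genes of cholesterol synthesis and uptake and 24 of lipogenesis and glucose sensing, 0 were called by edgeR, with medians of 0.15 and -0.28. At an unadjusted p under 0.05, 6 of the first were higher and 1 lower, and 1 of the second was higher and 6 lower, and DESeq2 called 1 of the first and 0 of the second. Insig2, which holds SREBP factors in the endoplasmic reticulum, rose by 0.52 ± 0.12 (adjusted p = 0.0222), and its call was lost without treated rat 2 or 4. Me1, the malic enzyme, had 59.8 to 66.4 CPM in the treated rats and 20.7 to 54.7 in the controls without overlap, but did not pass the test (0.99 ± 0.31, adjusted p = 0.127).

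Genes of cell division were higher, and THI + IMZ rat 4 carried most of the calls. Of 66 members tested, 31 rose and 0 fell, the median log2 fold change was 1.73, and all 66 lay above 0. At an unadjusted p under 0.05, 60 were higher (5.85% of all genes). Only 6 members lacked overlap with the controls (0.794% of all genes on the higher side). Averaged over 61 members, THI + IMZ rats 1 to 4 lay 0.22, 0.86, 1.38 and 2.62 log2 CPM above the control mean, and single controls between -0.48 and 0.54, so that rat 1 was within the control range and rat 4 far above it. Without rat 4 only Cdk1 was still called and the median was 0.87. With another treated rat left out, 44 (without rat 1), 35 (rat 2) and 23 (rat 3) members were called, and with 1 control left out 18 (control 8), 19 (control 1 or 7) or 23 to 33. Fitted on the compared groups alone, 17 were called.

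Cdk1, the kinase that drives entry into mitosis, stood at 1.43, 1.93, 2.90 and 7.73 CPM against 0.238 to 0.801 in the controls (median 0.688). The groups did not overlap, and the log2 fold change was 2.46 ± 0.39 (adjusted p = 0.000584), or 1.71 without rat 4 (adjusted p = 0.0274). Ccnb1, the cyclin that activates Cdk1, stood at 0.609, 1.61, 2.33 and 7.48 CPM against 0.202 to 1.04, so that rat 1 overlapped (2.44 ± 0.46, adjusted p = 0.00417). Knstrn, a kinetochore protein, and CDKN3, a phosphatase of Cdk1, rose by 2.59 ± 0.46 (adjusted p = 0.00233) and 2.45 ± 0.56 (adjusted p = 0.0207). The calls of Ccnb1, Knstrn and CDKN3 were lost without rat 4. Top2a, the mitotic topoisomerase, followed the same order with 4.19, 8.83, 10.8 and 24.1 CPM against 1.33 to 5.12, and Mki67, the proliferation antigen, with 2.93, 6.77, 9.07 and 19.9 CPM against 1.74 to 5.4.

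Promoters of this list were taken in order of the p against control (edgeR), which gave Cdk1, Knstrn and Ccnb1. Those of Cdk1 and Ccnb1 are shown. All were searched for 2 sequences known from cell cycle promoters. Capitals mark TTTGAA, one form of the CHR element, and CCAAT, the box bound by NF-Y, on either strand. The 250 bases before the start are at chr20:19265043-19265292 (plus strand) for Cdk1 and chr2:33655226-33655475 (minus strand) for Ccnb1, from RefSeq on GRCr8.
Cdk1: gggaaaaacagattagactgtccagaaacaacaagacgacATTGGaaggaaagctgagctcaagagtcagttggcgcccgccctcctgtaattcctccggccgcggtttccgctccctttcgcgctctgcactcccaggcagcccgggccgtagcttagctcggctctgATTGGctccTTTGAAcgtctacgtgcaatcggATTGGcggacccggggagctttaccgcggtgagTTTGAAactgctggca
Ccnb1: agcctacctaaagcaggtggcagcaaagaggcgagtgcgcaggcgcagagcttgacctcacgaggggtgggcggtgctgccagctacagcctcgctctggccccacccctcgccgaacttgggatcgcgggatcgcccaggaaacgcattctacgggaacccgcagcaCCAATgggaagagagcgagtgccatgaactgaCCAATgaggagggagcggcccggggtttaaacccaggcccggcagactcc
Cdk1 held TTTGAA 72 and 16 bases before the start and CCAAT at 210, 81 and 49 bases, and Ccnb1 held CCAAT at 82 and 50 bases. Knstrn, whose sequence is not shown, held TTTGAA 9 bases before the start and no CCAAT. Of the 55 promoters found for the list, 27 (49.1%) held TTTGAA and 37 (67.3%) held CCAAT, against 16.2% and 34.0% of 33469 promoters. In the 28 promoters of the CAR and PXR list the shares were 21.4% and 57.1%. A match of letters is a description of the sequence and no evidence of binding.

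Of the genes of DNA replication and repair, 4.08% and 3.03% were called, against 1.18% of all genes. At an unadjusted p under 0.05, 9 of 49 replication genes were higher and 0 lower. Of 33 repair genes, 10 were higher and 1 lower at that level (5.85% and 5.21% of all genes). DESeq2 called 3 replication and 4 repair genes higher. Rrm2, the small subunit of ribonucleotide reductase (2.47 ± 0.53, adjusted p = 0.0122), and Chaf1b, a histone chaperone (1.54 ± 0.35, adjusted p = 0.0181), were the 2 of 49 replication genes that rose, the median was 0.19, and 0 were called without rat 4. Bard1, the partner of Brca1, was the 1 of 33 repair genes that rose (2.03 ± 0.49, adjusted p = 0.0299), and its call was lost without control 3, 7 or 8 or rat 4. Among 25 targets of p53, Ephx1 and Gadd45a, a stress-induced growth arrest gene, rose, and the median was -0.01. Gadd45a stood at 13.8, 12.1, 21.5 and 35.9 CPM against 5.11 to 12.9 (1.27 ± 0.27, adjusted p = 0.0119), and its call was lost without rat 4.

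**Figure D3:**
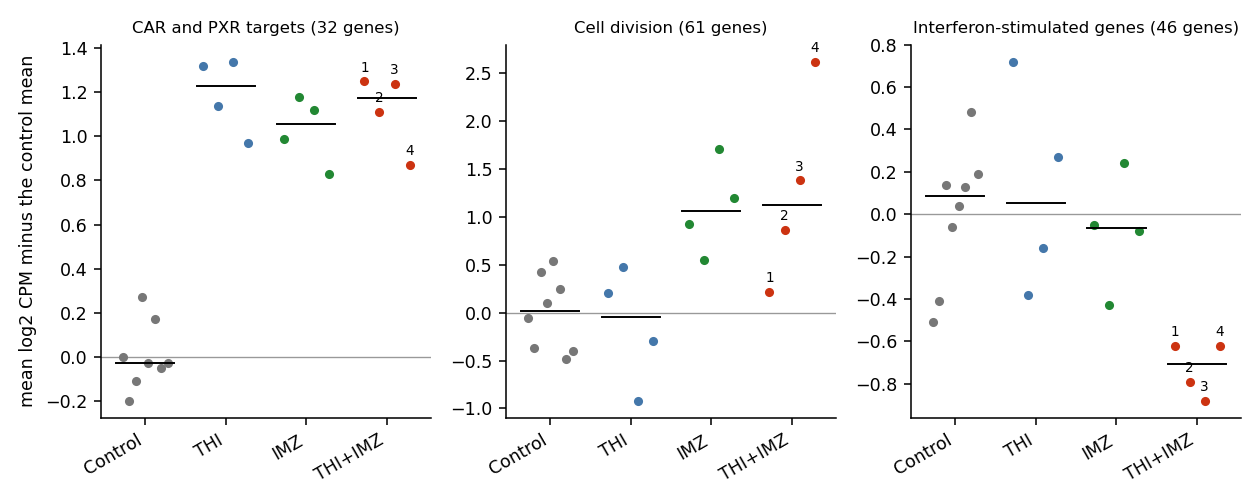
Mean log2 CPM of a gene list per rat relative to the control mean (y axis) for control, THI + IMZ, THI and IMZ rats, 1 point per rat. The 4 THI + IMZ rats spread from 0.22 to 2.62 for cell division but lie together between -0.88 and -0.62 for interferon-stimulated genes, below all 8 controls.

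Interferon-stimulated genes, which are switched on by type I interferon against viruses, were lower in all 4 treated rats. Of 48 members, 9 fell and 0 rose, and the median was -0.54. At an unadjusted p under 0.05, 35 were lower (5.21% of all genes) and 1 higher (5.85%). All treated rats lay below all controls in 12 members (0.663% of all genes). The mean over 46 members lay 0.62, 0.79, 0.88 and 0.62 log2 CPM below the control mean in rats 1 to 4, and single controls lay between -0.51 and 0.48. In the rats on the single compounds it lay between -0.38 and 0.72 (THI) and between -0.43 and 0.24 (IMZ). The number called was 6, 4, 3 and 5 without treated rats 1, 2, 3 and 4, and 6 to 11 with 1 control left out.

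Irf7, the factor that amplifies the interferon response, stood at 4.57, 3.6, 3.03 and 5.45 CPM against 6.51 to 22.3 in the controls (median 12.9). The groups did not overlap, and the log2 fold change was -1.68 ± 0.36 (adjusted p = 0.0134), a call lost without treated rat 3. Mx2 (-2.20 ± 0.45, adjusted p = 0.00883), a GTPase against viruses, and Usp18 (-2.17 ± 0.46, adjusted p = 0.0116), which removes Isg15 from proteins, fell most. Both were called with any 1 rat left out, but both overlapped with the controls. Mx2 stood at 3.52 to 7.48 CPM against 6.66 to 48.6, and Usp18 at 0.967 to 2.34 CPM against 2.02 to 10.6. The RNA sensors Oas1b (-1.73 ± 0.38, adjusted p = 0.0161) and Oasl (-1.67 ± 0.39, adjusted p = 0.0253) also fell, the first not without treated rat 2, the second not without control 7 or any 1 treated rat. Isg15, the ubiquitin-like modifier, stood at 1.22, 1.02, 1.35 and 1.73 CPM against 1.95 to 5.87 (-1.59 ± 0.38, adjusted p = 0.0255), and its call was lost without control 7 or treated rat 1, 2 or 3. Mx1 (-1.66 ± 0.41, adjusted p = 0.0374) lost its call without control 3, 6, 7 or 8 or treated rat 2, 3 or 4.

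The marker genes of immune cells stood as follows in the same livers. The 10 Kupffer cell and macrophage markers summed to 448 to 605 CPM in treated rats and 520 to 824 in controls, with 0 of 10 called. The 11 T and NK cell markers summed to 16.1 to 18.6 against 17.3 to 26.7, with 0 called, and the 4 tested of 6 B and plasma cell markers to 0.134 to 0.441 against 0.385 to 0.791, with 0 called. No marker of these 3 cell types was at 0 in all 12 rats. The part of these shifts in the interferon result was not tested. In whole liver, fewer cells of a type and less RNA per cell cannot be told apart. Over the longer lists, medians were -0.23 for 22 Kupffer cell genes (7 lower, 0 higher at an unadjusted p under 0.05), -0.20 for 31 T and NK cell genes and -0.48 for 12 B and plasma cell genes, with 0 called by edgeR in each and 1 Kupffer cell gene called lower by DESeq2.

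Further immune genes were lower. RT1-T24-3, a class I molecule of the rat MHC, stood at 3, 2.69, 1.81 and 3.15 CPM against 4.60 to 8.01 in the controls (-1.20 ± 0.19, adjusted p = 0.000584), with no overlap and a call that held with any 1 rat left out. As class I genes of this region resemble each other, its counts may include or miss reads of relatives. Of 35 genes of the MHC and antigen presentation only Psmb8, a subunit of the immunoproteasome, was called, with a log2 fold change of -0.53 ± 0.13 (adjusted p = 0.0256), and not without control 3 or 7 or treated rat 1 or 4, while the median was -0.25. The log2 fold change was below 0 in 32 of the 35. At an unadjusted p under 0.05, 12 were lower (5.21% of all genes) and 0 higher, and DESeq2 called 5 lower. Sema4a, a semaphorin of immune cells, was the 1 of 24 innate immune genes called (-0.85 ± 0.16, adjusted p = 0.00312). Igkc, the constant part of the kappa light chain, stood at 5.04, 5.32, 5.47 and 2.15 CPM against 10.2 to 17 (-1.54 ± 0.34, adjusted p = 0.0172), a call lost without treated rat 4.

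Several called genes belonged to no such group. Mme, the membrane peptidase neprilysin, stood at 4.45, 3.87, 4.10 and 6.57 CPM against 0.271 to 0.830 in the controls (median 0.533), a log2 fold change of 3.07 ± 0.38 (adjusted p = 9.55e-06). The treated rats were close together and far above the controls. Kif26b, an atypical kinesin, rose by 1.53 ± 0.27 (adjusted p = 0.00216). Grin2c, a subunit of the NMDA receptor, was chosen after its values were seen, being under the expression minimum of the naming rule. It stood at 9.70, 1.42, 2.38 and 4.18 CPM against 0.0244 to 0.289 (4.67 ± 0.42, adjusted p = 2.21e-08), with no overlap. Ky, a protein known from muscle, stood at 3.30, 4.27, 3.76 and 7.94 CPM against 11.2 to 32.5 (-1.78 ± 0.30, adjusted p = 0.0013), and Megf11, a receptor with EGF-like repeats, at 6.86, 8.06, 7 and 6.91 CPM against 12.9 to 28.0 (-1.35 ± 0.19, adjusted p = 7.18e-05). Both were without overlap. Among the genes that the paper also measured by qRT-PCR, it names Ky as the exception to a good match in direction.

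Eln, which encodes elastin, fell by 1.43 on the log2 scale (SE 0.29, adjusted p = 0.00713), with 4.57, 3.17, 3.53 and 8.19 CPM against 5.31 to 20.3, and its adjusted p was 0.0588 when the compared groups were fitted alone. Myh11, smooth muscle myosin, had an adjusted p of 0.0332 (-0.90 ± 0.22) that was over 0.05 without control 1, 3 or 6 or any 1 treated rat, and Eln and Myh11 were the only 2 called of 26 elastic fibre and smooth muscle genes (median -0.35). Smooth muscle markers summed to 12.0 to 17.9 CPM in treated rats and 14.8 to 46.8 in controls, and the part of this in the fall of Eln was not tested. Rgs5, a pericyte gene, rose by 0.92 ± 0.16 (adjusted p = 0.00225), the only one called among 30 genes of stellate cells and fibroblasts.

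Few genes that mark hepatocyte function were called. Of 45 secreted proteins of hepatocytes, only Apoa1, the main protein of HDL, was called, at 1940, 1520, 1020 and 811 CPM against 541 to 882 (0.85 ± 0.18, adjusted p = 0.0121), and not without treated rat 1 or 2. At an unadjusted p under 0.05, 2 of the 45 were higher and 7 lower (5.85% and 5.21% of all genes), and the median was -0.02. All treated rats lay below all controls in 2 members (0.663% of all genes), and DESeq2 called 1 higher and 3 lower. Albumin (Alb) stood at 105000 to 184000 CPM against 119000 to 173000 (0.04 ± 0.14, adjusted p = 0.955). Of 20 acute phase genes, Serpina3c, a serine protease inhibitor, rose by 0.68 ± 0.13 (adjusted p = 0.0054). Socs3, the feedback inhibitor of cytokine signalling, stood at 10.8, 3.79, 24.2 and 40.7 CPM against 3.53 to 9.76 (1.59 ± 0.40, adjusted p = 0.0374), and its call was lost without control 1, 3, 5, 7 or 8 or treated rat 3 or 4. XBP1, a factor of the unfolded protein response, rose by 0.39 ± 0.09 (adjusted p = 0.0281), the 1 of 32 stress response genes called, and not without control 1 or any 1 treated rat. Per1, a clock gene, was the 1 of 16 clock output genes called (-1.12 ± 0.26, adjusted p = 0.0238), and not without treated rat 3 or 4. In the lists of cholangiocytes, sinusoidal endothelium, red blood cells, pancreas, periportal enzymes, thyroid hormone handling, immediate early genes, iron handling and clock genes in phase with Arntl, 0 members were called by edgeR, and medians lay between -0.17 and 0.09. At an unadjusted p under 0.05 these lists had 0 to 4 members higher and 0 to 7 lower, against 5.85% and 5.21% of all genes. The 7 lower were among the 24 periportal genes, of which 0 were higher and 20 had a log2 fold change below 0 (median -0.17). The 4 higher were among the 16 thyroid genes, of which 1 was lower. DESeq2 called 2 thyroid genes higher and 1 pancreas and 1 periportal gene lower. The lists of pericentral genes, of the growth hormone axis and of fasting genes held only Nr1i3, Socs3 and Per1, respectively, as called members.

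The pancreatic enzyme gene Cpa1 stood at 82.7, 72.4, 178 and 48.0 CPM in treated rats and 189 to 464 in controls, without overlap, and did not pass the test (-1.58 ± 0.49, adjusted p = 0.123). Prss1, a defining gene of pancreas, was at 0 in all 12 libraries.

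The mixture was then set against each compound alone. Since THI and IMZ stood at about double dose in their own groups, the third contrast took the mean of both single groups on the log2 scale, which equals the effect that would result if the log2 changes of both compounds were scaled by 0.5 and added. Few genes differed in any of the 3 contrasts, which share the mixture rats. Against THI, 2 genes (0.0100%) were called, against IMZ 10 (0.0502%) and against the mean of both 3 (0.0151%). At an unadjusted p under 0.05, 3.70% of all genes were higher and 2.76% lower than that mean. A low number of calls with 4 rats a group does not show that the treatments acted alike.

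For the enzymes that rose most against control, no difference from the single compounds was called. The log2 difference of Cyp2b1 was -0.61 ± 0.81 against THI and 0.13 ± 0.80 against IMZ (adjusted p = 1 for both), with 180 to 331 CPM in THI rats and 13.5 to 472 in IMZ rats. For Abcc3 the differences were 0.12 ± 0.27 and 0.37 ± 0.27 (adjusted p = 1 and 0.844), and for Aldh1a1 -0.02 ± 0.29 and 0.41 ± 0.29 (adjusted p = 1 and 0.832). The median difference over the 34 CAR and PXR targets was -0.02 against THI and 0.07 against IMZ, with 0 called by edgeR or DESeq2. At an unadjusted p under 0.05, 2 of them were higher and 2 lower than with THI, and 1 was lower than with IMZ. Ces1d showed a larger value in the mixture (0.53 against THI, 0.74 against IMZ), as did Nr1i3 against IMZ (1.03), but neither passed the test (adjusted p = 0.646, 0.157 and 0.43). Cyp7a1, at 16 to 60.7 CPM in THI rats and 51.7 to 469 in IMZ rats, differed by -0.45 from THI (adjusted p = 1) and by -2.73 from IMZ (adjusted p = 0.089).

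RT1-T24-3 was called in all 3 contrasts. It stood at 5.55 to 11.9 CPM in THI rats and 5.81 to 8.25 in IMZ rats, all above the 4 mixture rats at 1.81 to 3.15, and the log2 difference was -1.52 ± 0.22 against THI (adjusted p = 0.00133), -1.41 against IMZ (adjusted p = 0.00518) and -1.46 against their mean (adjusted p = 0.000395). With 1 rat left out these calls held, except that against IMZ without mixture rat 3, and against THI the adjusted p was 0.261 when only the compared groups were fitted. Cdkn1a, the p53 target that inhibits cyclin-dependent kinases, was the other gene called against THI, higher by 1.73 ± 0.27 (adjusted p = 0.00448). That call was lost without THI rat 1 (adjusted p = 0.0664) and when only the compared groups were fitted (adjusted p = 0.172). It stood at 7.99, 19.4, 19.6 and 13.9 CPM in mixture rats and 3.48 to 5.18 in THI rats, while controls lay between 8.70 and 16.8. Against control the mixture did not pass the test for this gene (0.25 ± 0.22, adjusted p = 0.693), and the THI rats lay below all controls.

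IGF2BP3, an RNA-binding protein of fetal tissues, differed from IMZ by -1.41 (adjusted p = 0.0395) and from the mean of both by -1.41 (adjusted p = 0.0298), with 14.3, 5.64, 5.31 and 2.94 CPM in the mixture rats and 17 to 21.9 in IMZ rats. Its call against IMZ was lost without any 1 IMZ rat or mixture rat 2, 3 or 4, and that against the mean without THI rat 1, IMZ rat 4 or mixture rat 2, 3 or 4. A gene without symbol, ENSRNOG00000000787, stood at 0.679, 0.725, 0.544 and 0.634 CPM against 1.92 to 2.49 in IMZ rats and 0.998 to 2.97 in controls, and differed by -1.79 from IMZ (adjusted p = 0.00551) and by -1.57 from the mean (adjusted p = 0.00979). The first call was lost without mixture rat 3 and the second without mixture rat 2 or 3. Against IMZ the other called genes were Rtn4rl1 (-1.34), Fam134b, a receptor of endoplasmic reticulum turnover (1.03), Sox5 (0.76), Insig2 (0.72), Rhpn2 (0.58), XBP1 (0.58) and Sowahc (0.53), each with an adjusted p of 0.0395. The number of calls against IMZ was 0 without mixture rat 3, 2 without mixture rat 2 or without IMZ rat 1, 2 or 3, 5 without IMZ rat 4 and 6 without mixture rat 4.

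No member of the cell division or interferon list was called by edgeR in the contrasts with single compounds. Cell division had a median log2 difference of 1.68 against THI, with 60 of 66 members higher at an unadjusted p under 0.05 (2.93% of all genes) and 14 called by DESeq2. Against IMZ the median was 0.38, with 1 member higher at that level (3.37% of all genes) and 0 called by DESeq2. Per rat, the list mean lay between -0.92 and 0.48 in THI rats and between 0.55 and 1.71 in IMZ rats. Replication and repair genes had medians of 0.31 and 0.45 against THI. At an unadjusted p under 0.05, 17 of 49 and 11 of 33 were higher than with THI (2.93% of all genes) and 0 lower. DESeq2 called 3 and 0 of them. Against IMZ their medians were 0.01 and -0.01. Interferon-stimulated genes had medians of -0.58 against THI (32 lower at an unadjusted p under 0.05, 2.32% of all genes) and -0.50 against IMZ (26 lower, 3.36% of all genes), and DESeq2 called 13 and 1 of them lower. Against the mean of both compounds the medians were 1.03 for cell division (45 higher) and -0.57 for interferon-stimulated genes (32 lower at that level), and DESeq2 called 1 and 12.

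**Figure D4:**
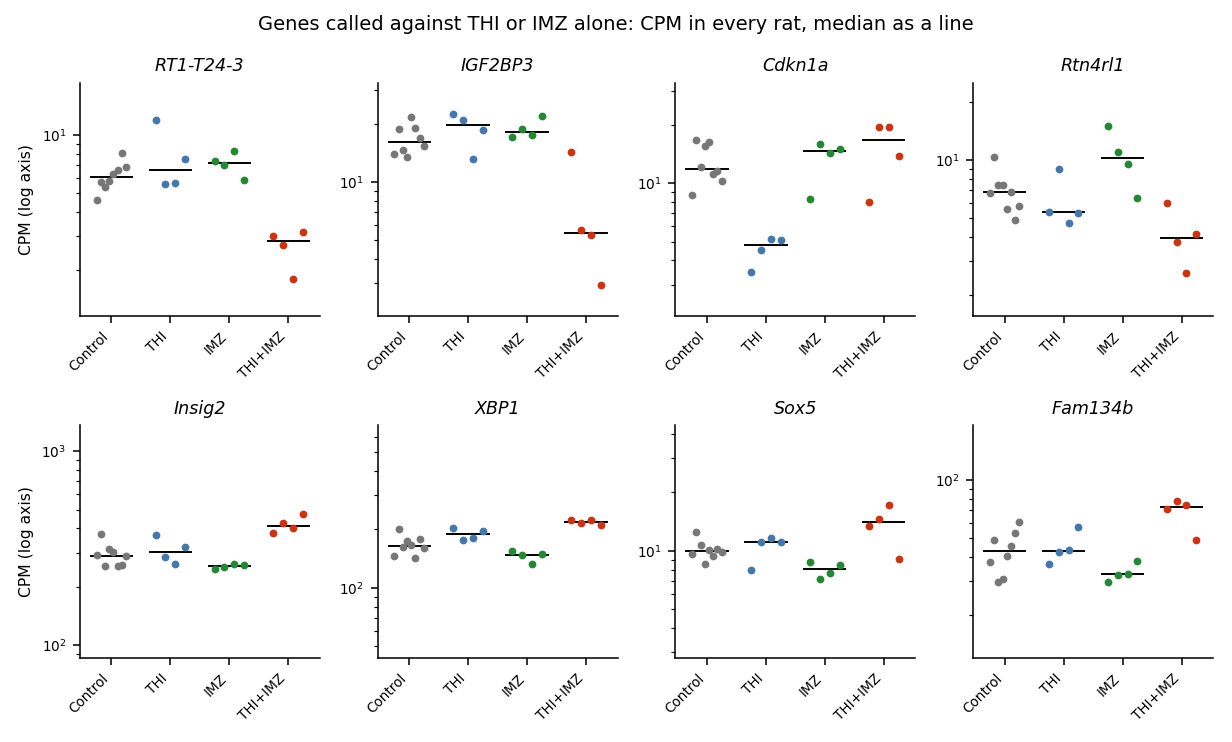
CPM (y axes, log scale) of 8 genes called between the mixture and THI or IMZ alone, in each control, THI, IMZ and THI + IMZ rat (x axes), with points for rats and lines for group medians. RT1-T24-3 lies between 1.81 and 3.15 CPM in the mixture and at 5.55 or higher in the single-compound rats, and Cdkn1a lies between 3.48 and 5.18 CPM in THI rats, below all other groups.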

How the data were processed

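Liver RNA of 31 rats was sequenced by the authors with a stranded total RNA kit. Per their methods and notes, reads were trimmed, mapped to Rnor_5.0 and counted per Ensembl gene with STAR 2.5.2b, and the deposited counts are whole numbers without normalization. A second deposited table holds a signal, these counts divided by DESeq2 size factors, and was used only for a check. The annotation release and strand setting are not given in the sources used here, so overlapping genes and paralogs may share reads. Errors come from the spread among rats, and no interval of a single count was computed.

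Counts were tested with edgeR 4.0.16 (R 4.3.3), quasi-likelihood, TMM scaling, 1 mean for each of the 7 groups, and Benjamini-Hochberg adjustment over the 19904 genes with at least 2 counts in all. The SE was derived from the log2 fold change and the F statistic. The scripts were tested on simulated data. DESeq2 1.42.0, other scalings, filters, fits and leaving out each rat were alternatives. Of 1026 symbols in 42 gene lists, 976 were matched, 24 in capitals and 15 through older symbols, and a gene may be in several lists. List means per rat are means of log2 CPM (prior count 2). The comparison, the gene lists and the tests were chosen with earlier results of these data known. Named genes were the 10 with the largest rise or fall among called genes with a symbol, average log2 CPM above 0 and no overlap, the 10 genes that the study lists as most regulated, up to 4 called members a list (or the 2 with the smallest p), up to 5 genes a direction in the contrasts with single compounds, and the 5 most abundant. The study's list was chosen on these samples and is no independent evidence. Further called members of a list are named where the text counts them. A few genes met by this rule are not reported.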

Additional observations from a re-analysis of the deposited data

Results flagged for a closer look

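In groups of 4 to 8 rats, 72 sets of values (31 genes and 5 gene lists) were examined for a rat that stood apart by Dixon's ratio, the gap to the nearest rat divided by the range. Chance gives about 1 in 20 such sets, and 8 were found. Among controls, rat 2 was the lowest for Cyp2b1 (0.586), rat 4 the highest for Abcc3 (0.647), rat 7 the lowest for Cdk1 (0.619) and Pir (0.536), and rat 3 the lowest for Gsta3 (0.55). Among THI + IMZ rats, rat 4 was the lowest for Igkc (0.911) and for the mean of the MHC and antigen presentation list (0.889), and rat 2 was the highest for Megf11 (0.878).

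Some genes differed between the mixture and a single compound by a test of the difference itself (edgeR's quasi-likelihood test). Against THI these were RT1-T24-3 (log2 difference -1.52) and Cdkn1a (1.73). Against IMZ they were ENSRNOG00000000787 (-1.79), RT1-T24-3 (-1.41), IGF2BP3 (-1.41), Rtn4rl1 (-1.34), Fam134b (1.03), Sox5 (0.76), Insig2 (0.72), Rhpn2 (0.58), XBP1 (0.58) and Sowahc (0.53). Against the mean of both they were ENSRNOG00000000787 (-1.57), RT1-T24-3 (-1.46) and IGF2BP3 (-1.41).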

How the results depend on the processing

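Of the 101 named genes, 62 were called, 34 of those were still called with any 1 of the 12 rats left out, 22 in every alternative, and 0 changed direction. The number of genes called against control was 435 with the DESeq2 Wald test (adjusted p missing for 6562 genes), which included all 235, and 143 to 297 with 1 rat left out (143 without THI + IMZ rat 4, 297 without control 2). The percentage of them that rose was 71.9, and 65.1 with DESeq2. Against THI the number was 0 when only the groups compared were fitted (859 at an unadjusted p under 0.05), 4 with thinned counts, 62 with DESeq2 and 1 to 19 with 1 rat left out (19 without THI rat 2). Against IMZ it was 53 with DESeq2 and 0 to 7 with 1 rat left out (0 without THI + IMZ rat 3, with 1138 at an unadjusted p under 0.05). Against the mean of both it was 54 with DESeq2 and 1 to 9 with 1 rat left out (9 without THI rat 2 or 4). The cause of these shifts was not tested.

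With the replicate number as a block (replicate block), 53 genes were called against control, 2 against THI, 13 against IMZ and 6 against the mean of both. With this block 37 named calls were lost. Numbers 5 to 8 occurred only among controls, so each of these controls was fitted by a term of its own. The contrast with control thus rested on controls 1 to 4, and the part of this in the lost calls was not tested. Deviations of same-numbered THI + IMZ and control rats correlated at -0.056 to 0.305, the latter (rats 2) being the highest among all pairs of these groups. With THI (0.382, rats 4) and IMZ (0.399, rats 1) the highest pairs were also same-numbered. The other same-numbered pairs lay between 0.052 and 0.24 with THI and between -0.062 and 0.035 with IMZ. Mixture rat 4 and IMZ rat 3 correlated at 0.295. Whether same-numbered rats share more than the number was not tested. With this block, 0 members of the cell division, interferon and NRF2 lists were called, and 8 of the 34 CAR and PXR targets.

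The groups compared held 4 rats each or, for controls, 8, and control libraries ran from 32.7 to 101.2 M counts, so that genes of a few counts are the least certain.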
